A study of Mus musculus with 8 samples.

Results

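The miR-183, miR-96 and miR-182 cluster is a group of 3 microRNA (miRNA) genes whose products were read here in exosomes, the small vesicles that cells release, from mouse amniotic fluid. Its 6 mature miRNAs, the 5p and the 3p arm of each hairpin (mmu-miR-183-5p, mmu-miR-183-3p, mmu-miR-96-5p, mmu-miR-96-3p, mmu-miR-182-5p and mmu-miR-182-3p, written below without the species prefix), were taken by name, and all 6 were among the 1881 mouse miRNAs on the array, with 14 of its 4415 miRNA probes. The cluster was picked with the difference between the groups on these same arrays already known, so its group differences are described with their errors, and no test outcome is given for any member. The series holds 8 one-colour Agilent arrays, 1 per sample, in 2 groups. The 4 LPS samples came from mice that gave birth too early, about 48 h after lipopolysaccharide (LPS, a component of bacterial membranes that provokes inflammation) had been given intraperitoneally on gestational day 14, 100 μg for each kg of body weight. Fluid was taken after vaginal bleeding had begun, from embryos whose membranes were unbroken. The 4 cesarean samples came from mice at cesarean section, with no word in the labels on any injection. Day 17 of pregnancy is the stage on every label, which is later than the LPS schedule allows, so whether the groups had the same gestational age is not known. The labels name no strain and do not say whether each sample came from a separate animal, so every SD and SE covers the spread between these samples, which may be technical.

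These miRNAs are cut from one primary transcript and are known above all from sensory organs, where they are abundant in hair cells of the inner ear, photoreceptors and olfactory neurons. Mutations in the seed of miR-96, the stretch near its 5′ end that pairs with target messages, cause deafness in humans and mice. The cluster is also expressed in other epithelia, and miR-182 is induced in activated T lymphocytes of mice, where it represses the transcription factor Foxo1.

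The 6 mature sequences are shown because the 3 arms that gave signal resemble one another closely at the 5′ end. They are given from RefSeq (GRCm38.p6, all on the minus strand of chromosome 6), 5′ to 3′, with the seed, bases 2 to 8, in capitals.
mmu-miR-183-5p: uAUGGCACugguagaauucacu
mmu-miR-96-5p: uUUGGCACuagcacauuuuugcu
mmu-miR-182-5p: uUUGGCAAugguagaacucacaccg
mmu-miR-183-3p: gUGAAUUAccgaagggccauaa
mmu-miR-96-3p: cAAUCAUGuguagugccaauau
mmu-miR-182-3p: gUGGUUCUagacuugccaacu

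No seed was shared between any of the 6. Over the first 10 bases, each pair of 5p arms was identical at 8 positions. Counting from 1 at the 5′ end, with the base of the first-named miRNA written first, miR-96-5p differs from miR-182-5p by C8A and A10G, miR-183-5p differs from miR-96-5p by A2U and G10A, and miR-183-5p differs from miR-182-5p by A2U and C8A. Among the mature mouse miRNAs of RefSeq, miR-1271-5p has the seed of miR-96-5p and was not analysed here. miR-3475-5p has the seed of miR-96-3p, and it was well above background on 0 of the 8 arrays. The other 4 seeds of the cluster had no second holder.

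The hairpins show how the arms lie in their precursors, with both mature arms of each in capitals. Mir183 lies at chr6:30169668-30169737, Mir96 at chr6:30169446-30169551 and Mir182 at chr6:30165918-30165992 (GRCm38.p6, minus strand).
Mir183: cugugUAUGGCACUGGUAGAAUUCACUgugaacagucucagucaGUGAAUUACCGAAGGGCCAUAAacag
Mir96: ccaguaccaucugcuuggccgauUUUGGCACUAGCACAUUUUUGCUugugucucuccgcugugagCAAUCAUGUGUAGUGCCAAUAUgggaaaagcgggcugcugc
Mir182: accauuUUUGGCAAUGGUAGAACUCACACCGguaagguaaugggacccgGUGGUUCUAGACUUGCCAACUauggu

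Between Mir183 and Mir96 lie 116 bases, and between Mir96 and Mir182 lie 3453. The whole cluster spans 3820 bases, all of them inside the long non-coding RNA gene Mirc35hg (chr6:30158640-30174125). Nrf1 is the nearest protein-coding gene, 12460 bases away. The array files place the 14 probes on chromosome 6 between 30115934 and 30119733 of the older build mm9.

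The probes that read the 3 detected arms are shown, since they decide how far one arm could be mistaken for another. Each is the reverse complement of the 3′ part of its miRNA and is printed 5′ to 3′ as DNA in lower case.
miR-183-5p, 19 bases: agtgaattctaccagtgcc
miR-96-5p, 22 bases: agcaaaaatgtgctagtgccaa
miR-182-5p, 16 bases: cggtgtgagttctacc

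The miR-183-5p probe covers positions 4 to 22 of its miRNA, the miR-96-5p probe positions 2 to 23, and the miR-182-5p probe positions 10 to 25, so the miR-182-5p probe reads nothing of the seed. The longest unbroken run of perfectly matched bases with another 5p arm of the cluster was 8 for the miR-183-5p probe and 7 for each of the other probes. Pairing that continues past a differing base was not counted. The printed miR-183-5p and miR-182-5p share a run of 8 bases, ugguagaa, and are alike again after a single differing base. How far such pairing adds to the signals was not tested. Each of these arms also had a second probe, shorter by 1 base.

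Values below are log2 of the background-subtracted spot signal after scaling the arrays to one another, with a floor at 3.75 for signals too dim to measure. Signals of different probes do not rank miRNAs by abundance, so each arm is set only against itself in other samples. Each array detected between 403 and 551 miRNAs, and the log2 signal at the 75th percentile, to which the arrays were scaled, ran from 7.72 to 8.67 on LPS arrays and from 7.74 to 8.81 on cesarean arrays. A single slide held all 8, LPS samples in its first row and cesarean samples in its second, so slide row and group cannot be told apart. In exosomes, more vesicles of one cell type and more miRNA per vesicle cannot be told apart either.

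The 5p arms were the only ones detected. After scaling, both miR-183-5p and miR-96-5p were higher on every LPS array than on any cesarean array, about 2.13-fold and 2.79-fold on average. The ranges of miR-182-5p overlapped. Before scaling, the groups overlapped for miR-183-5p and miR-96-5p too. The unscaled miR-183-5p signal was 101 on LPS replicate 4 against 113 on cesarean replicate 2. That of miR-96-5p was 14.7 on LPS replicate 1 against 22.8 on cesarean replicate 1. No 3p arm was well above background on any of the 8 arrays. The 3 detected arms entered the comparison of 470 miRNAs that were well above background on at least 3 arrays of a group. miR-96-5p entered it through the LPS arrays alone, as the cesarean group fell short of the 3 arrays. Over all 470, limma with Benjamini-Hochberg adjustment called 4.89% at 0.05, of which 12 rose (2.55%) and 11 fell (2.34%).

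miR-183-5p, from the first hairpin of the transcript, read 6.98, 7.60, 7.03 and 7.07 on LPS replicates 1 to 4, against 5.41, 6.50, 5.76 and 6.65 on cesarean replicates 1 to 4. The lowest LPS array thus stood above the highest cesarean array, by less than the SD of the cesarean arrays. The LPS mean was 7.17 ± 0.29 and the cesarean mean 6.08 ± 0.59 (SD, n = 4 each). Their log2 difference was 1.09 with an SE of 0.32 from limma, and it ranked 33 of 470 from the highest. Its shorter probe gave 1.11. LPS replicates 1, 3 and 4 lay close together, and LPS replicate 2 stood apart above them. Between 13 and 15 spots of the brighter probe were kept on each array, and their coefficient of variation was 4.43% to 11.3%, small beside the range over samples. Leaving out 1 array at a time gave differences of 0.87 to 1.28.

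miR-96-5p, the deafness-linked member, read 4.18, 6.77, 5.36 and 4.88 on LPS replicates 1 to 4, against 3.84, 3.92, 3.75 and 3.75 on cesarean replicates 1 to 4. The cesarean arrays lay at or just above the floor, and the LPS arrays spread upward from it, with LPS replicate 2 highest and LPS replicate 1 lowest. All 4 LPS arrays detected it, as did cesarean replicates 1 and 2, but not cesarean replicates 3 and 4. The LPS mean was 5.30 ± 1.09 and the cesarean mean 3.82 ± 0.08 (SD, n = 4 each). Their log2 difference was 1.48 with an SE of 0.46, and it ranked 9 of 470. The cesarean SD and the SE rest partly on values at the floor and so do not fully measure the spread between those samples. Before the floor was set, the scaled signals were 18.1, 109, 41.1 and 29.4 on LPS replicates 1 to 4, and 14.3, 15.2, 10.4 and 11.7 on cesarean replicates 1 to 4, so the groups did not overlap before the floor either, with LPS replicate 1 closest to the cesarean arrays. Its shorter probe was detected on 3 LPS arrays and 1 cesarean array and gave 1.0. Much of the size rests on LPS replicate 2, without which the difference was 0.99. Without LPS replicate 1 it was 1.85.

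For miR-182-5p, the lymphocyte-induced member, the values were 4.44, 6.88, 5.69 and 6.01 on LPS replicates 1 to 4, against 4.87, 5.47, 5.28 and 5.88 on cesarean replicates 1 to 4. LPS replicate 2 was the highest of the 8 arrays and LPS replicate 1 the lowest, with the cesarean arrays between them. The LPS mean was 5.75 ± 1.01 and the cesarean mean 5.38 ± 0.42 (SD, n = 4 each). The log2 difference of 0.38, with an SE of 0.46, was smaller than the SD of the LPS samples and ranked 115 of 470. The difference rests on LPS replicate 2. Without that array it was 0.0026, and without LPS replicate 1 it was 0.82. The second probe, of 15 bases, was detected only on LPS replicates 2 and 3 and gave 0.14. Its value was at the floor on every array but LPS replicate 2.

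**Figure D1:**
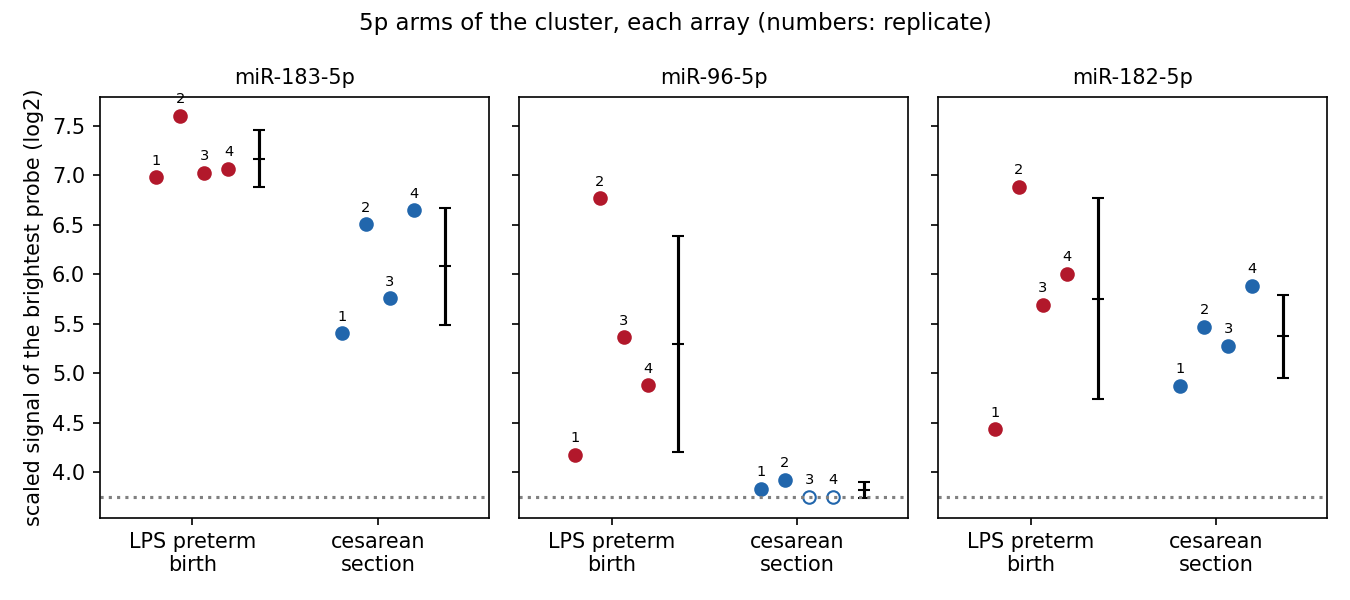
Scaled signal (log2) of the brightest probe of each 5p arm, with a point per array labelled by its replicate, LPS preterm birth on the left and cesarean section on the right of each panel. Bars give the mean and SD of 4 arrays, open points are arrays not well above background, and the dotted line is the floor of 3.75. LPS and cesarean points do not overlap for miR-183-5p and miR-96-5p, and overlap for miR-182-5p.

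Groups that do not overlap, with LPS higher, were found for 2 of the 3 detected arms, and for 9.79% of all 470 miRNAs. Non-overlap with LPS lower was found for 0 of the 3, against 7.23% of the 470, and a higher LPS mean for 3 of the 3, against 45.5% of the 470. The median log2 difference was 1.09 over the 3 arms and -0.06 over the 470. Since the arms were picked with this contrast known, nothing is read from these counts. The other 3 members had no measurable level to compare.

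The 3p arms, usually the rarer products of these hairpins, gave dim signals. On all 8 arrays the signals of both miR-182-3p probes ran from -1.75 to 0.06, and those of both miR-96-3p probes from -0.57 to 1.22. miR-183-3p had 4 probes, of which the longest, with 15 bases, was the brightest. Its scaled signal was 6.13, 12.1, 8.13 and 7.31 on LPS replicates 1 to 4, against 4.95, 7.59, 3.75 and 4.01 on cesarean replicates 1 to 4. All 8 values fell under the floor of 13.5 on this scale. Of its spots, 28.6% on LPS replicate 2 and 42.9% on LPS replicate 3 were well above background, short of the share of 0.5 that counted as detection, and 0 were on the other 6 arrays. At this sensitivity a 3p arm could not be told from background, which does not show that it is absent from the vesicles.

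**Figure D2:**
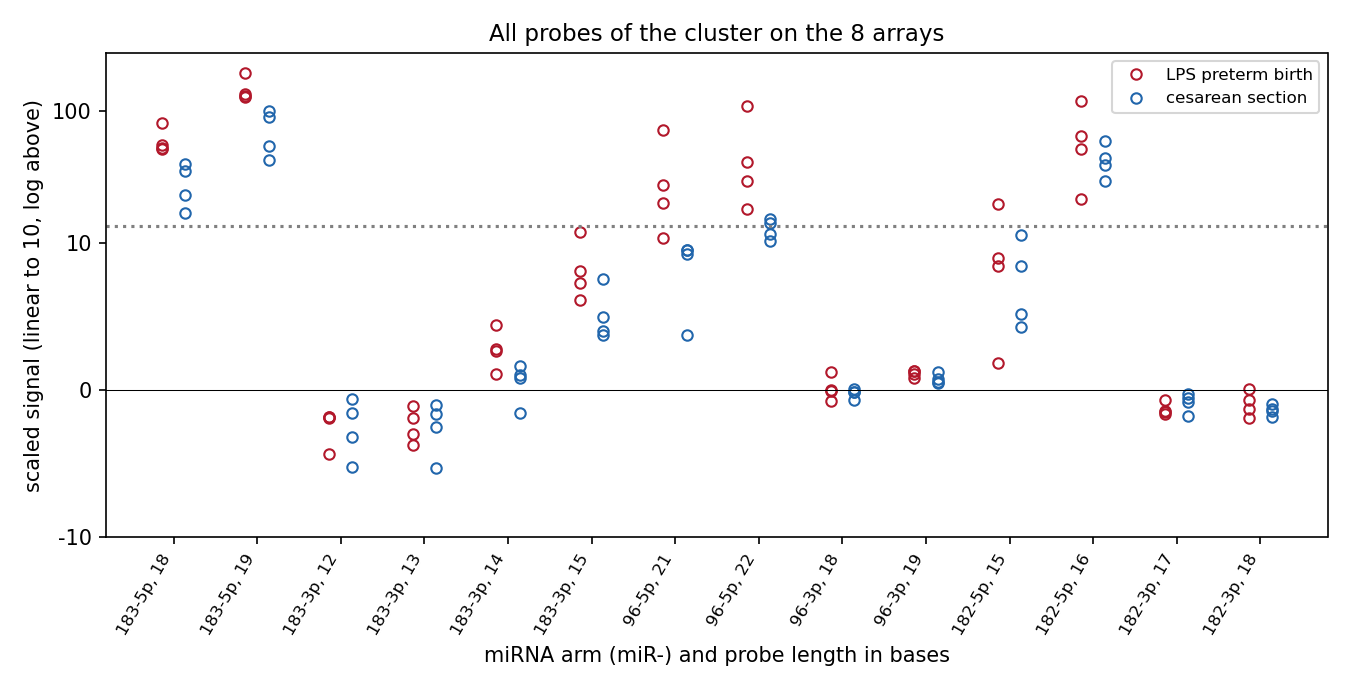
Scaled signal of all 14 probes of the cluster on the 8 arrays, linear up to 10 and logarithmic above, with LPS preterm birth left of cesarean section at each probe and the dotted line at the floor of 13.5. Probes are named by arm and length in bases. Both miR-183-5p probes lie above the floor on all 8 arrays, the other 5p probes on some or all, and every 3p probe lies under it on all 8 arrays.

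The 3 arms did not move as a block. On LPS replicate 2 all 3 reached their highest value, and on LPS replicate 1 miR-183-5p stood above all cesarean arrays while miR-182-5p was at its lowest. Across the 8 arrays the Pearson correlation was 0.76 between miR-183-5p and miR-96-5p, 0.74 between miR-96-5p and miR-182-5p, and 0.59 between miR-183-5p and miR-182-5p. With group means subtracted these became 0.41, 0.83 and 0.65. Without LPS replicate 2 they were 0.66, 0.37 and 0.34, so much of the relation of miR-182-5p with the others rested on 1 array. All values share the scaling of their array, and without scaling the first 3 were 0.85, 0.77 and 0.62.

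Among 334 other miRNAs detected on all 8 arrays, the ones most like the mean of the 3 arms belonged mostly to the miR-467 family, whose genes are known from an intron of Sfmbt2. The 5 with the highest Pearson correlation over 8 arrays were miR-467b-5p (0.97), miR-467e-5p (0.96), miR-467a-3p (0.96), miR-299b-5p (0.94) and miR-467d-3p (0.94), against a median of -0.04 over the 334. The same 5 also led with group means subtracted, from 0.90 to 0.96. Without LPS replicate 2 they ran from 0.84 to 0.94. miR-467b-5p read 5.54, 6.98, 5.93 and 6.25 on LPS replicates 1 to 4, against 4.81, 5.25, 4.77 and 5.37 on cesarean replicates 1 to 4. Its highest array and its lowest LPS array were those of the cluster mean. The 5 were selected from many for their likeness, and the arrays share scaling and slide.

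**Figure D3:**
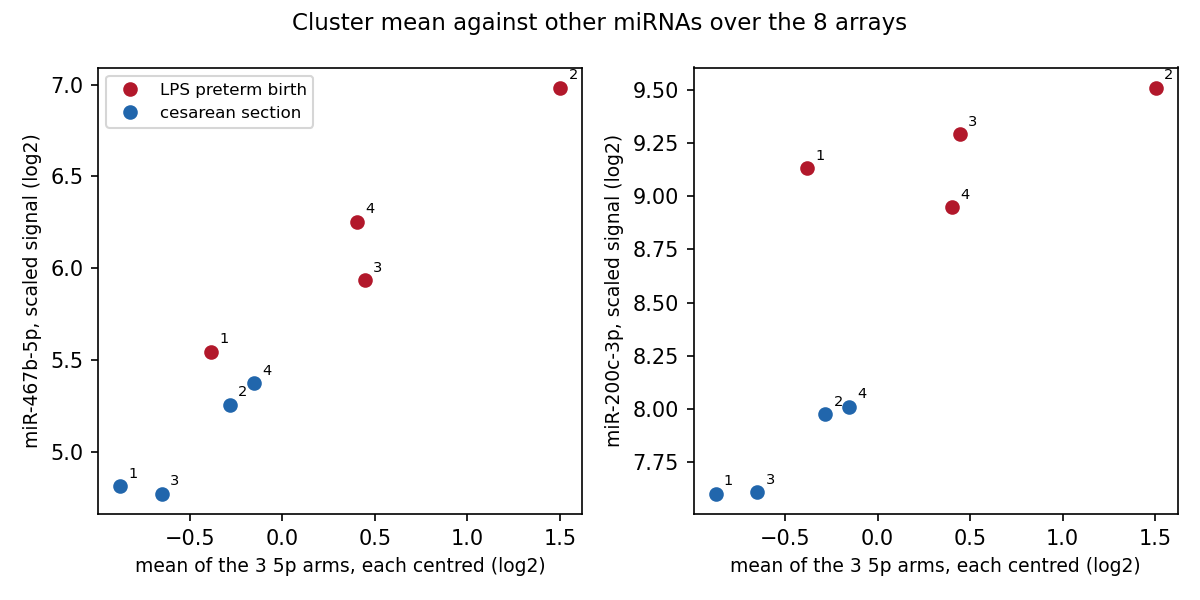
Mean of the 3 5p arms on each array, each arm centred on its own mean (log2, horizontal), against the scaled signal (log2, vertical) of miR-467b-5p on the left and miR-200c-3p on the right. Points are arrays labelled by replicate. Both miRNAs are higher on every LPS array than on any cesarean array, also on LPS replicate 1, where the cluster mean lies within the cesarean range. The Pearson correlation with the cluster mean is 0.97 for miR-467b-5p and 0.81 for miR-200c-3p. LPS replicate 1 is the lowest LPS array for miR-467b-5p, but not for miR-200c-3p.

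Part of a list of epithelial miRNAs was also higher with LPS. Of the 9 listed, all tested, 3 rose and 0 fell, where 2.55% of the 470 rose and 2.34% fell. The median log2 difference was 1.08, against -0.06 over the 470. The 3 that rose belong to the miR-200 family, which maintains the epithelial state, with differences of 1.42 for miR-200c-3p, 1.23 for miR-200a-3p and 1.08 for miR-200b-3p. On LPS replicates 1 to 4 miR-200c-3p read 9.13, 9.51, 9.29 and 8.95, against 7.60, 7.98, 7.61 and 8.01 on cesarean replicates 1 to 4. The LPS arrays lay close together and above all cesarean arrays, and LPS replicate 1 was not low among them as it was for miR-182-5p. The other 2 of that family, miR-141-3p at 1.5 ± 0.39 and miR-429-3p at 0.91 ± 0.23 (SE, n = 4 per group), did not pass the test. Nor did the remaining 4 of the list. Among these, the skin miRNAs differed by 1.49 ± 0.75 for miR-203-3p, 0.72 ± 0.36 for miR-31-5p and -0.17 ± 0.64 for miR-205-5p. The pancreatic islet miRNA miR-375-3p differed by 0.05 ± 0.44. This list and the next were chosen with earlier results of these arrays known.

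On a list of miRNAs of sensory organs and neurons, none rose. Of 10 listed, 6 were tested, 0 rose and 2 fell, where 2.55% of the 470 rose and 2.34% fell. The median log2 difference was -0.61, against -0.06 over the 470. Those that fell were miR-9-3p (-3.34 ± 0.74 SE), which 1 LPS array and all 4 cesarean arrays detected, and miR-181b-5p (-1.63 ± 0.26 SE). Since 3 LPS arrays did not measure miR-9-3p above background, its size and SE depend on the floor. The retinal miR-204-5p differed by 0.54 ± 0.46, and its relative miR-211-5p and the corneal miR-184-3p were detected on 0 of the 8 arrays. The neuronal miR-124-3p was detected on 0 LPS arrays and 2 cesarean arrays.

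Of the miRNAs whose probes the array files place near the cluster on chromosome 6, none passed the test, where 4.89% of the 470 did. By these probe positions, 4 further miRNAs lay within 1 Mb, all of the miR-29 genes, of which 2 were tested. Some miRNAs on the array have no position given, such as miR-342-3p, so the list may be incomplete. miR-29b-3p differed by 0.85 ± 0.27 and miR-29a-3p by 0.04 ± 0.27 (SE, n = 4 per group), and the groups did not overlap for miR-29b-3p alone. The miR-29b-3p probe also matches chromosome 1, so the array does not assign it to this locus.

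Markers of several sources differed between the same arrays. The summed signal (log2) of 5 miR-200 family miRNAs was 10.49 to 11.13 on LPS arrays and 9.51 to 9.94 on cesarean arrays. For 3 red blood cell miRNAs it was 13.78 to 14.92 on LPS arrays and 13.08 to 13.94 on cesarean arrays, and 1 of the 3 rose, miR-144-3p. As miR-144-3p was detected on 4 LPS arrays and 0 cesarean arrays, it entered the test through the LPS arrays alone. Its cesarean mean was the floor of 3.75, so its size, SE and correlations depend on the floor. For the 3 tested of 5 leukocyte miRNAs it was 9.30 to 9.82 on LPS arrays and 9.42 to 9.80 on cesarean arrays, and 1 rose, miR-142a-3p. Of the 470, 2.55% rose. On LPS replicate 2, where the cluster was highest, the red blood cell sum was the lowest of the LPS arrays. Neither the leukocyte sum nor the miR-200 family sum was the highest there. The red blood cell and leukocyte sums mostly follow their brightest probe. The LPS mean was 14.34 for miR-451a, against 8.22 for miR-486a-5p and 4.89 for miR-144-3p. For miR-223-3p it was 9.18, against 7.08 for miR-342-3p and 5.28 for miR-142a-3p. Some single markers moved with the cluster mean over the 8 arrays, and others of the same lists did so less or not at all. The Pearson correlation was 0.86 for miR-141-3p, 0.84 for miR-142a-3p, 0.81 for miR-200c-3p and 0.79 for miR-144-3p. For the other leukocyte miRNAs tested it was -0.12 (miR-223-3p) and -0.23 (miR-342-3p). Red blood cell miR-451a gave 0.33 and miR-486a-5p 0.32. In the miR-200 family, miR-429-3p gave 0.65, miR-200a-3p 0.59 and miR-200b-3p 0.52. The list means gave 0.74 for the miR-200 family, 0.60 for leukocytes and 0.52 for red blood cells. With group means subtracted, these lists gave 0.35, 0.32 and -0.28. Without that subtraction, striated muscle gave -0.28, miR-122-5p 0.22, miR-126a-3p -0.24 and miR-128-3p -0.43. The 4 striated muscle miRNAs spread from 7.12 to 10.85 on LPS arrays, lowest on LPS replicate 2, and from 8.12 to 9.15 on cesarean arrays. The liver miRNA miR-122-5p ranged from 5.04 to 9.81 on LPS arrays, likewise lowest on LPS replicate 2, and from the floor of 3.75 to 7.02 on cesarean arrays. Of the endothelial and platelet pair, miR-126a-3p was tested and ran from 7.98 to 8.53 on LPS arrays and from 7.88 to 9.04 on cesarean arrays. Of the 3 neural markers 1 was tested, miR-128-3p, at 4.07 to 6.51 on LPS arrays and 4.63 to 5.99 on cesarean arrays. The part of these sources in the values of the cluster was not tested. Array brightness, the 75th percentile, and the cluster mean had a Pearson correlation of -0.16 over 8 arrays. The cluster mean was taken after each array had been divided by that percentile, so this value depends on the scaling. Without scaling, miR-183-5p alone gave 0.29. The part of brightness in the values was not tested.

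Over 14 other ways of processing the same 8 arrays, miR-183-5p stayed between 0.69 and 1.20 and was higher with LPS in all 14. Some of these ways could not alter its difference. Changes of the floor or the filter, and the slide column as a block, left it at 1.09. miR-96-5p, which 13 of the ways could give, ran from 0.60 to 1.79. miR-182-5p ran from -0.21 to 0.48 and had a negative sign in 1, which used the total per miRNA that the scanner software writes. In the authors' deposited value table the differences were 1.20 for miR-183-5p, 1.79 for miR-96-5p and 0.34 for miR-182-5p.

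**Figure D4:**
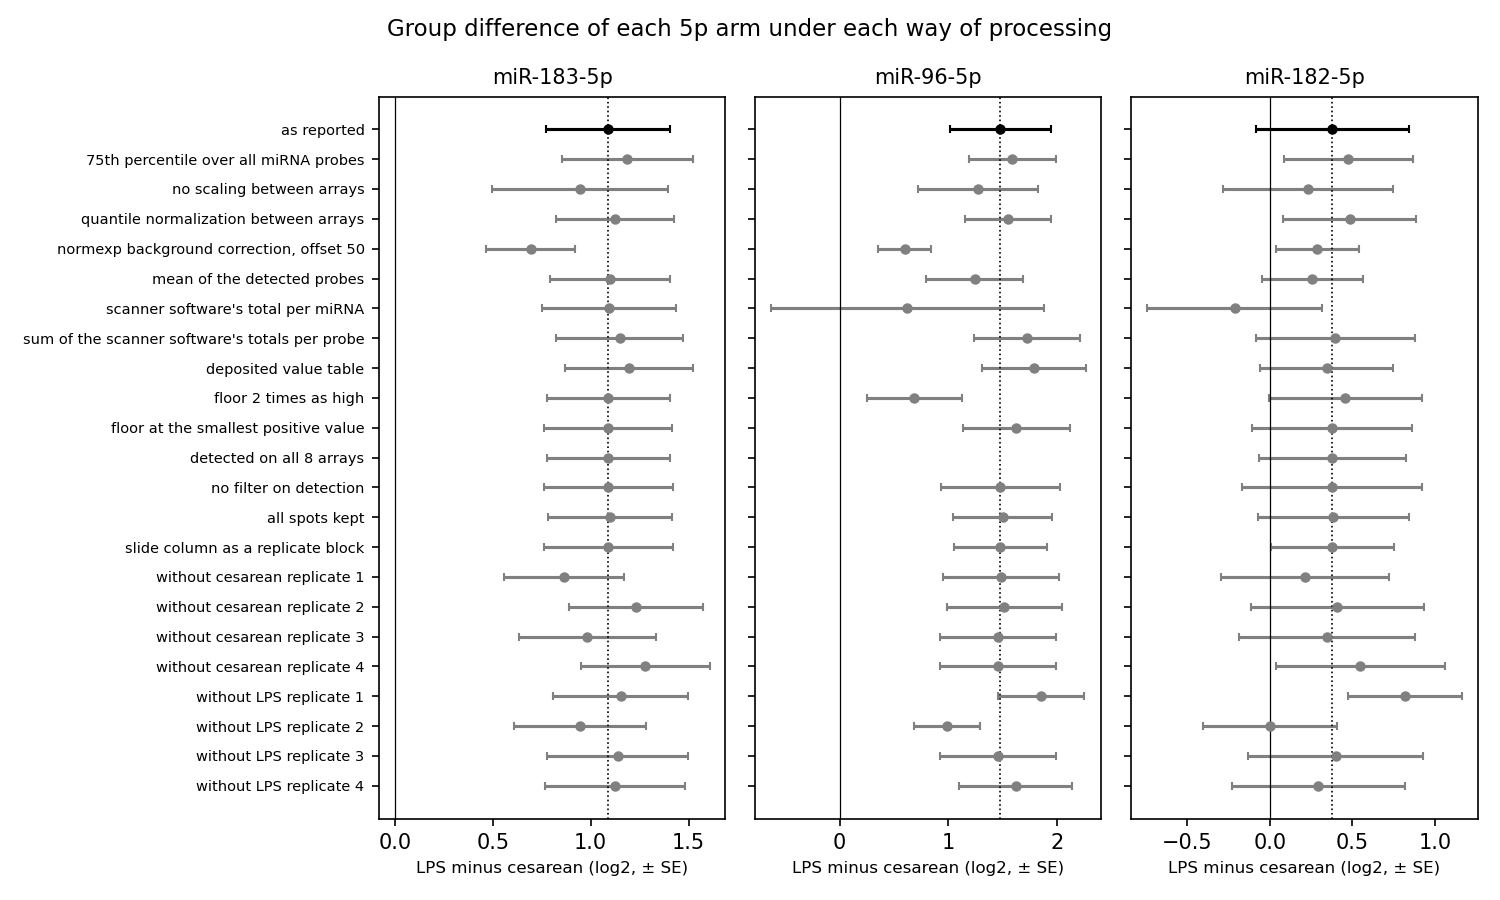
Log2 difference between LPS preterm birth and cesarean section (horizontal, with its SE) of each 5p arm under each way of processing (rows), with the reported value in black and as a dotted line. miR-183-5p stays right of 0 in every row, miR-96-5p shrinks with normexp, with a higher floor and with the total written by the scanner software, and miR-182-5p lies near 0 without LPS replicate 2.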

How the data were processed

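Vesicles were separated on a size-exclusion column and amplified cRNA was labelled with Cy3, per the labels' protocols. The authors deposited spot intensity values, linear and background-subtracted, from Agilent Feature Extraction 10.7.1.1, per the file headers, whereas the submitters' processing notes name version 9.1. The authors' deposited value table holds log2 values. Their normalization was not given in the sources used here.

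Here, spots of controls and those marked as outliers or non-uniform were dropped (2.99% to 3.48% of an array's 56430 miRNA spots). Detection of a probe required that a share of 0.5 or more of its remaining spots be well above background. Each array was divided by its 75th percentile, taken over 618 probes that all arrays detected, put on a common scale, raised to a floor of 13.5 and put on the log2 scale. The probe with the highest mean stood for each miRNA. The comparison used limma 3.58.1 (R 4.3.3), two-sided, with Benjamini-Hochberg adjustment over 470 miRNAs, and was tested on simulated data. The number of arrays limits the precision. Alternatives changed scaling, background, probe summary, floor, filter and samples. Figures used matplotlib 3.10.9 (Python 3.11.15).

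The members and lists were chosen with earlier results of these data known. Named are the 6 members, miRNAs with a member's seed, those with a probe placed within 1 Mb, the 5 most like the mean of the arms, and some of each list.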

Additional observations from a re-analysis of the deposited data

Results flagged for a closer look

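In the LPS group, miR-183-5p read 7.60 on replicate 2, apart from 6.98 to 7.07 on the other 3 LPS arrays. The gap to the nearest array took up 0.863 of the range of the group, which is more than chance gives in about 1 of 20 groups of 4, and 6 groups were checked. Without this array the difference between LPS and cesarean samples was 0.95 in place of 1.09.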

How the results depend on the processing

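Of the 470 miRNAs, 23 passed the adjusted threshold. This number was 13 with the 75th percentile over all probes, 1 without scaling, 36 with quantile normalization, 9 with normexp, 6 with the scanner software's total per miRNA, 13 with the floor at the smallest positive value, 15 among miRNAs detected on all 8 arrays and 2 without a filter on detection. Leaving out 1 array gave 3 (without cesarean replicate 3) to 79 (without LPS replicate 1), and each array but LPS replicate 4 moved the count by more than 1.5 times. The labels pair no samples. With the slide column as a replicate block the count was 1. The differences of the 3 arms stayed at 1.09, 1.48 and 0.38, which such a block cannot change, as each column held 1 array of each group. The difference of miR-96-5p was 0.60 with normexp, 0.69 with a floor 2 times as high and 0.62 with the scanner software's total per miRNA. That of miR-182-5p reversed to -0.21 with the same total. Leaving out 1 array gave 0.87 to 1.28 for miR-183-5p, 0.99 to 1.85 for miR-96-5p and 0.0026 to 0.82 for miR-182-5p, without a change of sign. Normexp adds 50 to each signal, which shrinks differences between dim signals by construction. The higher floor replaces dim values of either group, and with it miR-182-5p differed by 0.46. The median difference of all miRNAs was -0.20 without scaling and -0.06 as reported. No 3p arm could be compared, and the cesarean level of miR-96-5p lay too near the background for a firm size.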

Other observations

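The total signal per miRNA that the scanner software writes departed from the sum of its own totals per probe for some members on some arrays. For miR-96-5p on cesarean replicate 4 the total per miRNA was 138, against 4.85 for the sum over its probes, although neither probe was detected there. For miR-182-5p it was 109 on cesarean replicate 1 against a sum of 15.6, and 19.2 on LPS replicate 1 against 5.54. For miR-183-3p it was 37.3 on LPS replicate 2, 26.9 on LPS replicate 3 and 20.2 on cesarean replicate 2, against sums of 2.01, 2.10 and 1.55, and the software marked the miRNA as detected on these arrays. For miR-183-5p, both of whose probes were detected on all 8 arrays, both totals were equal to within rounding. Over all miRNAs the software marked as detected, the totals differed more than 2-fold for 18.0% to 22.7% on an array. With the sums over probes, which were added as an alternative after the data had been seen, the differences between LPS and cesarean samples were 1.15 for miR-183-5p, 1.72 for miR-96-5p and 0.40 for miR-182-5p, and 21 of the 470 miRNAs passed the adjusted threshold. The cause of the departure was not tested.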
